A study of Mus musculus with 6 samples.

Results

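Blood coagulation, fibrinolysis and the serpins that restrain them are largely run by proteins that the liver makes and secretes. In the cascade, tissue factor with factor VII starts clotting, factors X and V convert prothrombin to thrombin, and thrombin cuts fibrinogen into fibrin, which factor XIII cross-links; the intrinsic factors and the contact system amplify the process, while antithrombin, protein C, protein S and their partners damp it. Fibrin is then dissolved by plasmin, which the activators Plat and Plau release from plasminogen and which serpins hold in check. The genes described here are 37 members of this system, chosen by name, and they were found on the array as 53 of its 55681 probes besides controls. Of these genes, 35 had a probe bright enough to be tested, out of 18568 genes tested in all. F13a1, the catalytic subunit of factor XIII, and Plau, the urokinase activator, were not well above background on any array and were not tested.

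The samples were 3 normal livers and 3 liver tumors of male C3H/HeN mice aged 74 to 75 weeks, a strain whose males develop liver tumors spontaneously. All animals were F2 pups of the untreated control group of a gestational arsenic project, kept on a standard diet, and according to the study's methods the tumors carried a Ha-ras mutation. The labels call the 3 samples of a group separate samples but do not say whether a tumor and a normal liver came from 1 animal, so p-values measure the spread between these samples. Each RNA was read on 1 single-color array, so that their small number sets the precision. The expression value used below is the processed signal of a probe divided by the 75th percentile of its array, on a linear scale, and the levels of different genes are not compared; sums over marker genes add their signals, so that brighter probes weigh more in them. Between 44.7% and 48.9% of spots were well above background on each array and no spot was saturated. The normal livers lay on one slide and the tumors on another, with a median local background of 42, 43 and 45 against 23, 22.5 and 22 intensity units, so that a difference between slides cannot be told apart from one between tissues. In whole tissue, fewer cells of a type and less RNA per cell cannot be told apart either. The liver label was checked with 14 hepatocyte genes, all of which were well above background in both groups, and albumin (Alb) read 2447, 2449 and 1923 in the normal livers and 2123, 2221 and 2162 in the tumors.

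Among genes bright in both groups, Serping1 and F13b had the largest called falls in the tumors, and prothrombin (F2) and the β chain of fibrinogen (Fgb) were not called. Fgl2, Plat and Plaur read higher and Serpina5 lower in the tumors, but each was above background on all arrays of only 1 group, so that the sizes of these changes are uncertain. A gene was called higher or lower where limma gave an adjusted p under 0.05 over all tested probes. By that rule 15 of the 35 tested genes changed (42.9%, against 34.2% of all tested genes), and this share was not tested against the background. Of them, 5 were higher (13.1% of all tested genes were), namely Fgl2, Plat, Plaur, Serpinf2 and Tfpi. The other 10 were lower (21.0% of all tested genes were), namely Klkb1, F13b, Proc, Pros1, Proz, Serpinc1, Serpina5, Serping1, Plg and Cpb2. Of the 15, Fgl2, Plat, Plaur and Serpina5 passed the filter on dim probes only through the group in which they were high. The groups did not overlap for 23 genes (65.7%, against 51.8% of all tested genes). The median log2 fold change of tumor over normal liver was -0.18 over the 35 genes and -0.13 over all tested genes. With quantile normalization it was 0.0093 over the 35 genes and -0.043 over all tested genes. With spike-in scaling it was 0.032 over the 35 genes and 0.079 over all tested genes.

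**Figure D1:**
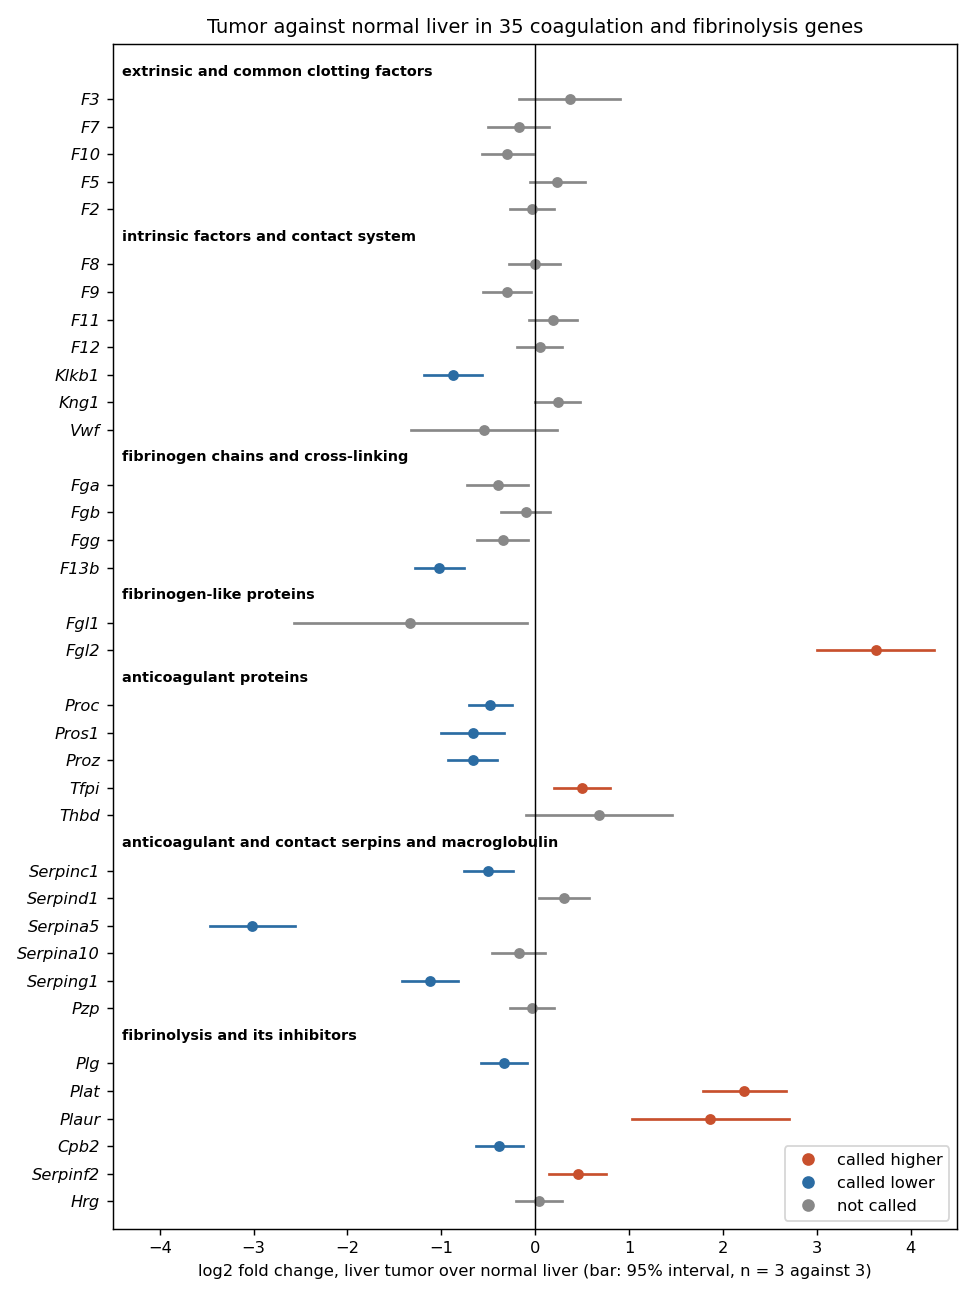
Log2 fold change of liver tumor over normal liver (horizontal axis) for the 35 tested genes, grouped by role; points are limma estimates and bars their 95% intervals from 3 against 3 arrays, red for genes called higher, blue for genes called lower and gray for genes not called. Fgl2 lies at 3.63 and Serpina5 at -3.02, with prothrombin (F2) at -0.04. The positions of Serpina5, Plat, Fgl2 and Plaur depend on how signals near background are treated.

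How arrays are scaled mattered for the small changes. With scaling by 8 probes of the spike-in controls, the median over all genes moved by 0.21 on the log2 scale, and 5 of the genes were called higher and 4 lower, compared with 2688 and 1485 of all genes (64.4% of calls higher, against 38.5% with the percentile). With quantile normalization 9 were higher and 7 lower, compared with 2769 and 3044 of all genes (47.6% of calls higher). Of the 15 called genes, Proc, Pros1, Proz, Serpinc1, Plg and Cpb2 were not called with the spike-in scaling, whose calls were Klkb1, F13b, Serpina5 and Serping1 for falls and Fgl2, Plat, Plaur, Tfpi and Serpinf2 for rises. These 9 genes were called in 1 direction under all 3 scalings.

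**Figure D2:**
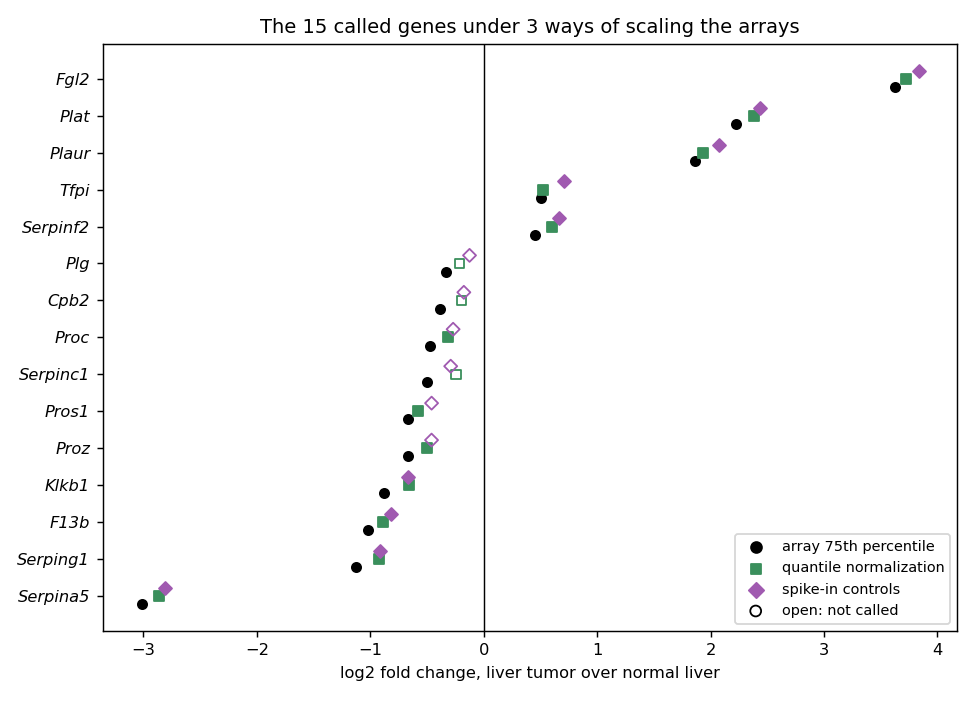
Log2 fold change of liver tumor over normal liver (horizontal axis) for the 15 called genes when the arrays are scaled to their 75th percentile (circles), by quantile normalization (squares) or by spike-in controls (diamonds); filled symbols are called and open symbols are not. No gene changes side, and open symbols occur for Proc, Pros1, Proz, Serpinc1, Plg and Cpb2.

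The extrinsic and common clotting factors showed no call among 5 genes, where 34.2% of all tested genes were called. Prothrombin, F2, had expression values of 584, 604 and 609 in the normal livers and 603, 565 and 583 in the tumors. The groups overlapped, and the log2 fold change of -0.04 had a 95% interval of -0.27 to 0.20 (adjusted p = 0.794), so a 2-fold change in either direction lay outside it. The direction of F2 turned with the scaling, to 0.14 after quantile normalization and 0.17 with spike-in scaling. For tissue factor (F3), which starts the extrinsic pathway, the log2 fold change was 0.37 with an interval of -0.17 to 0.91, and 0.16 without tumor 1 or 0.24 without normal liver 3. F5, the cofactor of factor X, gave 0.23, and F10, the protease that activates prothrombin, gave -0.30 (adjusted p = 0.0899), both without a call.

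F7 and F10 show how much rests on a probe. F7, the protease that pairs with tissue factor, was read by 2 probes that share 30 bases of their 60, and only 1 of them had tumors below all normal livers (log2 fold change -0.38, adjusted p = 0.0839, against -0.18 and 0.356). F10 had a second probe whose 60 bases are all a or g, a simple repeat. It gave a log2 fold change of -0.02 and was not the probe used for the gene. The run shared by the F7 probes (in capitals) and the first 30 bases of the F10 probes are shown because they are what these readings depend on.
F7, shared by the probes at chr8:13035257-13035316 and chr8:13035287-13035346, plus strand, mm9: GTTGGGGTTTTCCGACTCCCACTACTGTAG
F10, chr8:13055774-13055833, plus strand, mm9: tggcatctacacaaaggtcacgaccttcct
F10, repeat probe, chr8:13056223-13056290, plus strand, mm9: agaaagaaagaaagaaagaaagaaagaaag

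In the intrinsic pathway and contact system, 1 of 7 genes was called (14.3%, against 34.2% of all tested genes). Klkb1 encodes plasma prekallikrein, the contact protease that is activated by factor XII and releases bradykinin. Its expression values were 77.9, 83.3 and 82.8 in the normal livers and 39, 44 and 50.5 in the tumors. Every tumor lay below every normal liver, and the log2 fold change was -0.88 (SE 0.13, adjusted p = 0.00466, a 1.84-fold difference). F11, the neighboring gene in the RefSeq order of genes and the protease that activates factor IX, read 0.19 (interval -0.06 to 0.45) and was not called. F12, which starts the contact reactions, read 0.05, and F9, the factor lacking in hemophilia B, read -0.30 (adjusted p = 0.076).

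Factor VIII and von Willebrand factor are made mainly by endothelium, and neither was called. F8 gave a log2 fold change of -0.01 (interval -0.28 to 0.27). Vwf, the carrier of factor VIII, had expression values of 1.14, 1.3 and 1.24 in the normal livers and 0.5, 1.25 and 0.945 in the tumors. The groups overlapped because tumor 2 read like a normal liver, and tumor 1 was the lowest. The log2 fold change of -0.54 had an interval from -1.32 to 0.23, and it was -0.17 without tumor 1 and -0.83 without tumor 2.

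Kininogen, the cofactor of prekallikrein, is encoded in mice by the paralogs Kng1 and Kng2. The 2 Kng1 probes gave 0.24 (adjusted p = 0.112) and 0.43 (adjusted p = 0.0522) in log2 fold change, with tumors above normal livers on both, and neither was called. The brighter one passed the threshold with normexp correction (0.31, adjusted p = 0.0452), with quantile normalization (0.48, adjusted p = 0.013) and in the unpaired form of the methods' t-test after adjustment over all probes. The Kng2 probe read 158, 153 and 169.5 in the normal livers and 413, 342 and 299 in the tumors. These groups were well apart, with a log2 fold change of 1.12 (SE 0.15, adjusted p = 0.00316). The transcripts listed for the Kng1 probes include some of Kng2, so the share of each paralog in the Kng1 signal is uncertain.

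No fibrinogen chain was called higher or lower. Fgb, the β chain, read 1329, 1246 and 1348 in the normal livers and 1276, 1262 and 1119 in the tumors. Fgg, the γ chain, read 1505, 1310.3 and 1342 in the normal livers and 1119, 1134 and 1014 in the tumors. Fga, the α chain, read 222, 214 and 235 in the normal livers and 189.5, 176 and 145 in the tumors. Groups overlapped for Fgb and did not for Fgg and Fga, yet none of the 3 genes was called. Their log2 fold changes were -0.10 (interval -0.37 to 0.16), -0.35 (-0.62 to -0.07, adjusted p = 0.0574) and -0.40 (-0.72 to -0.08, adjusted p = 0.0614). Fgg passed the threshold with normexp correction (adjusted p = 0.0453) and with a variance trend (adjusted p = 0.0248), and Fga with the trend (adjusted p = 0.0304) and with the mean of its probes (adjusted p = 0.039), its second probe having given -0.44. With spike-in scaling the values became 0.10, -0.14 and -0.19, the Fgb value thereby turning positive. Fgb was also positive with normexp correction (0.02) and with quantile normalization (0.12). The 3 chains are consecutive protein-coding genes in the order Fgg, Fga, Fgb.

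F13b, the carrier subunit of factor XIII, fell clearly. This probe is printed 10 times on the array, and its averaged expression values were 26.8, 28 and 28.6 in the normal livers and 12.8, 13.7 and 14.7 in the tumors. The spread within a group was far smaller than the gap between them. The log2 fold change was -1.02 (SE 0.11, adjusted p = 0.00159), a 2.03-fold fall, and -0.81 with spike-in scaling, where it was still called. F13a1, the catalytic subunit with which F13b circulates, read between 0.0218 and 0.0858 on its 2 probes, none of them above background.

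Of the fibrinogen-like genes, Fgl2 rose and Fgl1 was not called. Fgl2, which encodes a membrane prothrombinase and a secreted immune regulator, read 0.12, 0.132 and 0.231 in the normal livers and 1.89, 1.72 and 2.15 in the tumors. Only 1 of the 3 normal livers was well above background for it, while all tumors were, so that it was tested only because of its tumor signal. The fitted log2 fold change was 3.63 (SE 0.26, adjusted p = 3.9e-04), and its size is not a measured fold. Since the study listed Fgl2 from these same arrays, its rise is no independent evidence. The estimate for so dim a normal signal depends on the background correction, and normexp correction, which adds an offset of 50 to every signal, gave 1.99 with the call kept.

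Fgl1, a hepatocyte-secreted ligand of an inhibitory T cell receptor, differed widely among the tumors. Its brightest probe read 101, 95.4 and 142 in the normal livers and 99.1, 38.6 and 22.5 in the tumors. Tumor 1 lay within the range of the normal livers and the other tumors far below it. The log2 fold change was -1.33 (SE 0.52, adjusted p = 0.0931), not called, and without tumor 1 it was -1.91 (adjusted p = 0.00745). The other probes gave -1.25 and -1.40, and the last of these passed the threshold (adjusted p = 0.0489).

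The first 30 bases of the probes for the genes with the 3 largest fitted rises and the 3 largest fitted falls among the calls follow, each with the position of its 60-base probe in the array design's mm9 coordinates.
Fgl2, chr5:20883482-20883541, plus strand: aaatactatgtgttcatcctgagtgtgtct
Plat, chr8:23892531-23892590, plus strand: aaggttacgaattacctagactggattcac
Plaur, chr7:25260569-25260628, plus strand: ccctcgtgttgtcttctttggacctcagtt
Serpina5, chr12:105344174-105344233, plus strand: gtagcatacttgagtaatcagggtcaaagt
Serping1, chr2:84605663-84605722, minus strand: tgggtaaacattgtcacccaagcttcagct
F13b, chr1:141420037-141420096, plus strand: caattttaggaagactccactaagttcagt

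Of the 5 anticoagulant proteins, 3 were called lower (Proc, Pros1 and Proz) and 1 higher (Tfpi), where 21.0% of all tested genes were lower and 13.1% higher. Proc, the protein C zymogen that inactivates factors V and VIII, read 325, 317 and 333 in the normal livers and 228, 237 and 236 in the tumors. Pros1, its cofactor protein S, read 6.51, 6.86 and 7.42 in the normal livers and 3.85, 4.23 and 5.08 in the tumors. Proz, protein Z, the cofactor for inhibition of factor X, read 323, 345 and 325 in the normal livers and 202, 198 and 227 in the tumors. For each of these genes all tumors lay below all normal livers. The log2 fold changes were -0.48 (adjusted p = 0.0129), -0.67 (adjusted p = 0.0139) and -0.67 (adjusted p = 0.00632), or -0.27, -0.46 and -0.46 with spike-in scaling, where none was called. The second Proz probe also fell (-0.36, adjusted p = 0.0356). Proz follows F7 and F10 in the RefSeq order of protein-coding genes, and only Proz of this run was called.

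Tfpi, the inhibitor of tissue factor and factor VII, was called higher on 1 of its 3 probes. The brightest Tfpi probe read 0.478, 0.469 and 0.562 in the normal livers and 0.74, 0.74 and 0.654 in the tumors (log2 fold change 0.50, adjusted p = 0.0242). The other probes gave 0.09 and 0.23 without a call, with groups that overlapped. The Tfpi call held in 2 of the 6 fits that left out an array, and was lost without normal liver 1 or 2 or tumor 1 or 2. Thbd, the endothelial thrombomodulin that turns thrombin toward protein C, gave 0.68 with an interval of -0.10 to 1.46, and 0.39 without tumor 2 or 0.43 without normal liver 1. The Tfpi probes lie at different positions, and their first 30 bases are shown because the call depends on which is read.
Tfpi, called, chr2:84273059-84273118, minus strand, mm9: tttcgccagttatgatcacaaacattacat
Tfpi, chr2:84281022-84281081, minus strand, mm9: tggtaaccctaactcactttaggtttatag
Tfpi, chr2:84284179-84284238, minus strand, mm9: atactgtaactgatcgcagtactgtaaata

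Of the 6 serpins and related inhibitors of the cascade, 3 were called lower and none higher, where 21.0% of all tested genes were lower. Serpinc1, antithrombin, the main inhibitor of thrombin and factor X, read 975, 1047 and 989 in the normal livers and 689.7, 678 and 766 in the tumors. All tumors lay below the normal livers, with a log2 fold change of -0.50 (SE 0.11, adjusted p = 0.0153). The Serpinc1 call was lost with quantile normalization (-0.24), with spike-in scaling (-0.29), without normal liver 2 and without tumor 2. Serping1, the C1 inhibitor that blocks kallikrein, factor XII and the first complement proteases, read 246, 244 and 262 in the normal livers and 109, 107 and 131 in the tumors. It fell on both its probes, by 1.12 (SE 0.12, adjusted p = 0.00179) and 1.15 (adjusted p = 0.0025) on the log2 scale, a 2.18-fold difference on the first.

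Serpina5, the protein C inhibitor, left the measurable range in the tumors. It read 0.272, 0.205 and 0.19 in the normal livers, all well above background, and 0.0259, 0.0325 and 0.0237 in the tumors, none above it. The tumor level is therefore only a bound, and on the scale of the processed signal Serpina5 was at least 2.14-fold lower in the tumors. For such a bound, the dim probe was given on each array the lowest signal that any probe above background had there, unless its own signal was greater. The adjusted p of 2.5e-04 belongs to the fit of the signals as read, not to the bound. With normexp correction, whose offset shrinks folds of dim probes, the log2 fold change was -0.69, still called. The remaining members were not called: Serpind1, heparin cofactor II, gave 0.31 (adjusted p = 0.0729), Serpina10, the protein Z-dependent inhibitor, -0.18 (adjusted p = 0.296), and Pzp, an α-macroglobulin that traps proteases, -0.03 (interval -0.27 to 0.20).

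**Figure D3:**
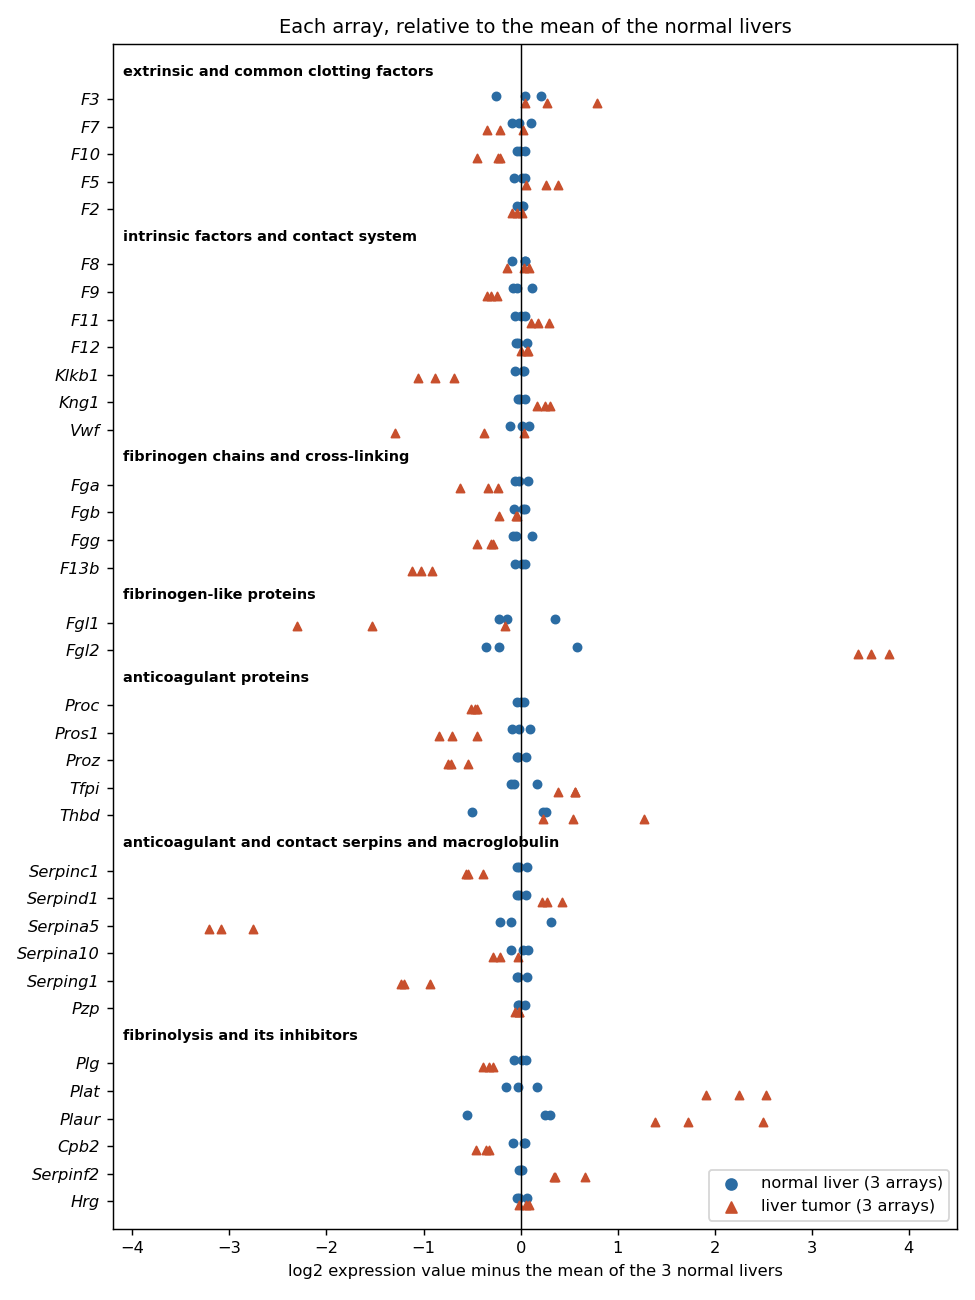
Log2 expression value of each array minus the mean of the 3 normal livers (horizontal axis) for the 35 tested genes, with normal livers as blue circles and tumors as red triangles. The groups are apart for 23 genes, and the tumors are spread widely for Fgl1, Vwf, Thbd and Plaur.

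In fibrinolysis, 5 of 6 tested genes were called, where 34.2% of all tested genes were, 3 of them higher (Plat, Plaur and Serpinf2) and 2 lower (Plg and Cpb2). Plat and Plaur were tested only because of their tumor signal. Plat, the tissue-type plasminogen activator, read 0.0413, 0.0331 and 0.0361 in the normal livers, none above background, and 0.175, 0.211 and 0.138 in the tumors, all above it. On the scale of the processed signal Plat was thus at least 1.52-fold higher in the tumors. The adjusted p of 6.5e-04 belongs to the fit of the signals as read, not to this bound, and with normexp correction the log2 fold change was 0.30 and not called (adjusted p = 0.0682). Plaur, the urokinase receptor that gathers plasminogen activation at the cell surface, read 0.194, 0.187 and 0.107 in the normal livers and 0.89, 0.52 and 0.41 in the tumors. The groups were apart, with normal livers above background in 2 of 3 cases, and the log2 fold change was 1.87 (SE 0.35, adjusted p = 0.00985), or 0.78 with normexp correction. The Plaur call was lost in the unpaired form of the methods' t-test (adjusted p = 0.106). Its ligand Plau read at most 0.0376 on any array and was not above background.

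Plg, plasminogen, read 423, 447 and 459 in the normal livers and 364, 353 and 338 in the tumors. The tumors were all lower, by a log2 fold change of -0.33 (SE 0.10, adjusted p = 0.0468). Cpb2, the carboxypeptidase that protects fibrin from lysis, gave -0.38 (adjusted p = 0.0337), with 222, 242 and 243 in the normal livers against 188, 171 and 184. Serpinf2, α2-antiplasmin, the direct inhibitor of plasmin, rose from 415, 425 and 422 in the normal livers to 665, 538 and 533 in the tumors (log2 fold change 0.45, adjusted p = 0.0346). These 3 calls were weak: leaving out any of the 6 arrays ended the Plg and Cpb2 calls, with adjusted p from 0.0735 to 0.133 and from 0.0536 to 0.109, and the Serpinf2 call held only without tumor 3. Hrg, a histidine-rich plasma protein that binds plasminogen and heparin, gave 0.04 (interval -0.20 to 0.29).

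Genes outside the 37 were read beside them. Of 73 further genes of the pathway, in 8 lists, 72 were on the array and 61 were tested, of which 10 were higher and 18 lower (45.9%, where 34.2% of all tested genes were called, 13.1% higher and 21.0% lower). Anxa2, a cell-surface receptor for plasminogen and Plat, read 9.61, 9.72 and 9.42 in the normal livers and 76.6, 69.2 and 80.1 in the tumors, which gave a log2 fold change of 2.97 (SE 0.11, adjusted p = 3.6e-05). Serpine2, protease nexin-1, an inhibitor of Plat, Plau and thrombin, read 1.01, 0.61 and 0.8 in the normal livers and 0.095, 0.2 and 0.204 in the tumors (fitted log2 fold change -2.33, SE 0.34, adjusted p = 0.00457). The groups did not overlap for either gene. Serpine2 was above background in 2 of 3 tumors and was tested only because of its normal-liver signal, so the size of its fall is uncertain; normexp correction gave -1.08, still called.

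**Figure D4:**
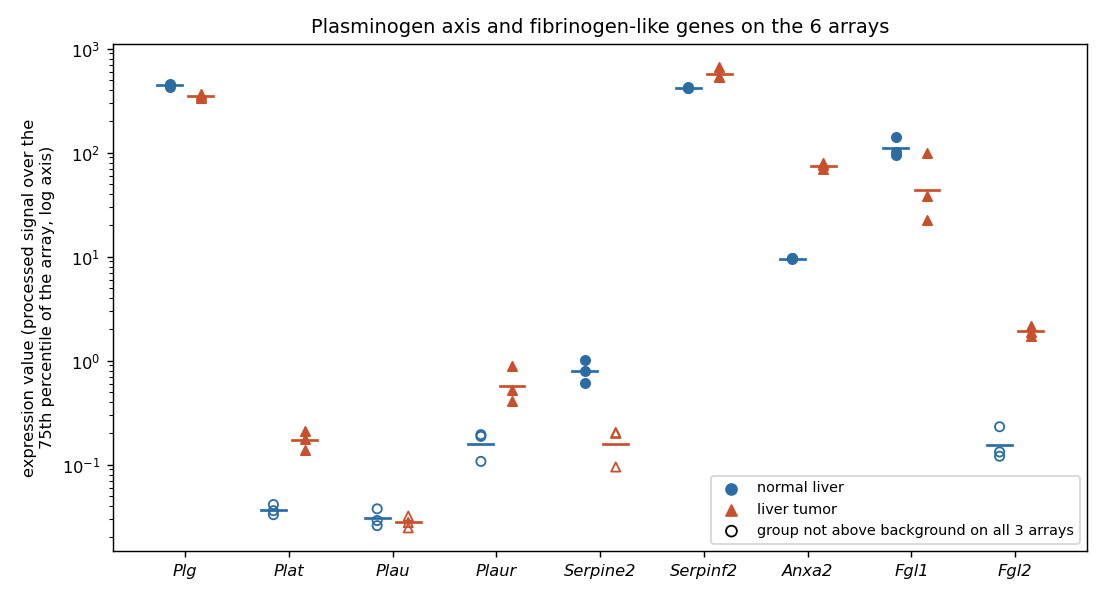
Expression value on each of the 6 arrays (vertical log axis, processed signal over the 75th percentile of the array) for plasminogen axis and fibrinogen-like genes, with normal livers as blue circles, tumors as red triangles, geometric means as bars, and open symbols where a group was not above background on all 3 arrays. Heights of different genes are not comparable. Plat, Plaur, Serpinf2, Anxa2 and Fgl2 have all tumors above all normal livers, and Plau has open symbols in both groups.

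The other named pathway genes came from several lists. Hgfac, the activator of hepatocyte growth factor, a protease related to factor XII, rose by 1.27 on the log2 scale (adjusted p = 0.00202), and Prss8, the membrane protease prostasin, by 2.27 (adjusted p = 0.00139). Serpina3n, an acute-phase serpin, rose by 1.21 (adjusted p = 0.00829). F2r, the thrombin receptor PAR1, rose by 1.13 (adjusted p = 0.00134), from 6.1, 5.6 and 5.92 to 13.4, 11.7 and 13.7. It was named after its value was seen, as were Kng2, Vkorc1 and Masp1. Adamts13, the protease that trims von Willebrand factor, had a fitted log2 fold change of -1.73 (SE 0.27, adjusted p = 0.00567). It too was above background in 2 of 3 tumors and tested only because of its normal-liver signal, and normexp correction gave -0.74, still called. Masp1, a lectin-pathway protease able to cleave fibrinogen, fell by 1.15 (adjusted p = 0.00392).

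Of the 5 genes of the vitamin K cycle and of factor secretion, 1 was called (20%, against 34.2% of all tested genes). Vkorc1, the reductase that recycles vitamin K and the target of warfarin, read 228, 224 and 217 in the normal livers and 112, 123 and 121 in the tumors, which gave a log2 fold change of -0.91 (SE 0.10, adjusted p = 0.00189). Ggcx, the carboxylase that uses vitamin K to modify prothrombin and factors VII, IX and X as well as proteins C, S and Z, gave -0.13 (adjusted p = 0.358). The substrates with lower calls were Proc, Pros1 and Proz, while F2, F7, F9 and F10 were not called.

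Many clotting proteins, fibrinogen among them, are acute-phase proteins, and 16 acute-phase genes were read for comparison; 2 were higher and 8 lower (62.5%, against 34.2% of all tested genes). Orm1 and Orm2, the orosomucoids, fell by 2.76 (adjusted p = 0.00383) and 2.82 (adjusted p = 0.00453) on the log2 scale, and Saa1 and Saa2, the serum amyloids, by 1.60 (adjusted p = 0.025) and 1.70 (adjusted p = 0.0277). The members of each pair are close paralogs whose signals are uncertain, and the Saa1 and Saa2 calls were lost without normal liver 2 or any 1 of the tumors. Lcn2, lipocalin-2, rose by 5.29 (SE 0.44, adjusted p = 6.8e-04), from 3.8, 3.03 and 1.91 to 201, 66.6 and 97. The list held rises and falls side by side.

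Of 12 transcription factors known at promoters of clotting genes, 1 was higher and 1 lower (16.7%, against 34.2% of all tested genes). Foxa3, a liver forkhead factor, rose by 0.91 (adjusted p = 0.0303), and Cebpb, a factor of acute-phase genes, fell by 0.74 (adjusted p = 0.0422); these too were named after their values were seen. Hnf4a, which is required for many clotting genes, gave 0.16 (adjusted p = 0.436). In the remaining lists, to be read against 13.1% of all tested genes higher and 21.0% lower, 1 of 2 tested receptors of thrombin and protein C was higher, 2 of 8 other inhibitors were higher and 2 lower, 2 of 8 other proteases were higher and 4 lower, and 2 of 6 genes of the plasminogen and urokinase list were higher and 2 lower.

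Promoter windows of 300 bases, from 250 before to 50 after the start site, were given by RefSeq (GRCm38.p6) for 27 of the 37 genes, as 29 windows. They were searched on both strands for short motifs, 4 of which are given, and the matches did not overlap one another in the windows printed. TTGCNNAA, the C/EBP pattern, was found in 34.5% of these windows against 10.8% of all 32851 windows. CAAAGTNCA, an HNF4 pattern, was found in 6.9% against 1.41%. The 6.9% rested on only 2 of the 29 windows, those of F9 and Serpind1, neither of which was called. TTCNNNGAA, the STAT pattern, was found in 17.2% against 8.3%, in F9, Fga, Fgb, Fgl2 and Pros1. TGANTCA, the AP-1 pattern, was found in 20.7% against 7.81%, in F2, F3, Fgb, Fgl2, Hrg and Plaur. A match is a description of letters, not a binding site. Of these, F2, F3, Fgb and Hrg were not called, and the windows of Serpinf2 and Tfpi, both called higher, had no AP-1 match. The C/EBP pattern lay in Cpb2, Klkb1, Serpina5 and Serpinc1, called lower, in Plaur, called higher, and in F9, F11, Fga, Fgb and Hrg, not called. Fgl2 and Plaur are printed because they were called higher and had an AP-1 match, so the choice followed the calls. Each line gives the 250 bases before the start site, with matches in capitals.
Fgl2 (AP-1, STAT), chr5:21372423-21372672, plus strand: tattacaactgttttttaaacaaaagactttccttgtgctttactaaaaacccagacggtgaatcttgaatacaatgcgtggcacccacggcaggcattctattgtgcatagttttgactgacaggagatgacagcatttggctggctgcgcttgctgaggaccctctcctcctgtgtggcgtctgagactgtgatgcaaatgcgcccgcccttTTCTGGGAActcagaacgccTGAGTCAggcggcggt
Plaur (AP-1, C/EBP), chr7:24462233-24462482, plus strand: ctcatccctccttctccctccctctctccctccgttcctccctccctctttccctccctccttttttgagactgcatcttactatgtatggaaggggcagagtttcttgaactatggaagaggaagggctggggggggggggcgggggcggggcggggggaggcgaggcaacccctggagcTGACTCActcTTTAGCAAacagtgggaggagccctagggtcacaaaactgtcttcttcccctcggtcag

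Several of these genes are expressed outside hepatocytes, and marker genes of other cell types were read beside them; counts of markers called stand against 13.1% higher and 21.0% lower over all tested genes. Of 10 endothelial markers, 2 were lower and 1 higher (30%), and their summed expression was 116, 123 and 132 in the normal livers and 96.3, 104 and 98 in the tumors, with Clec4g the largest part. Cd34, a marker of capillary endothelium, rose by 2.46 on the log2 scale (adjusted p = 0.00176), while the sinusoidal markers Stab2 and Clec4g fell by 0.78 (adjusted p = 0.0154) and 0.49 (adjusted p = 0.0496). The other Stab2 probes gave 0.09 and 0.02 without a call. Lyve1 and Oit3, also sinusoidal, gave 1.5 (adjusted p = 0.0913) and -0.10, and Plvap, another capillary marker, gave -0.27, none of them called, and 6 of the 10 values were negative. These values stand beside Vwf, F8, Thbd, Tfpi and Plat, which endothelium expresses, and their part in those results was not tested.

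Of 8 tested macrophage and Kupffer cell markers, 6 were lower (75%, against 21.0% of all tested genes), and the sum over 9 markers was 127, 101 and 174 in the normal livers and 84.7, 51.5 and 56.3 in the tumors, with Cd5l and Csf1r the largest parts. Plaur and Fgl2, which macrophages express, rose in the same tumors. Of 9 stellate cell and fibroblast markers, 5 were lower and 2 higher (77.8%, against 34.2% of all tested genes called), and their sum was 84.8, 85.1 and 103 in the normal livers and 25.4, 38.4 and 45.6 in the tumors, with Dcn the largest part. Serping1 and Serpine2 are expressed by such cells. The part of these cells in the results was not tested.

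Of the platelet genes, Pf4 and Itgb3 were well above background on all 6 arrays. Ppbp, Gp1ba, Gp5 and Gp9 were not above background on any array, nor was the brightest Gp1bb probe in either group as a whole, none of the 4 tested genes of 10 was called, and the sum was 1.72, 1.8 and 1.42 in the normal livers and 1.88, 1.64 and 1.4 in the tumors, with Pf4 and Itgb3 the largest parts. Neutrophil markers had no call among 4 tested genes of 6, with Mpo above background on no more than 1 array and S100a9 and Elane the largest parts of the sum, and their sum was 11.2, 11.3 and 8.28 in the normal livers and 22.2, 11.1 and 8.66 in the tumors, tumor 1 being the highest. Plaur also read highest in tumor 1. Cholangiocyte markers had no call among 4 tested genes of 6, with sums of 2.36, 2.93 and 2.33 in the normal livers against 2, 1.89 and 2.19 in the tumors, Spp1 the largest part. Of 7 lymphocyte markers, 3 were tested and 1 was higher, a Cd4 probe that made up most of the sum of 69.2, 65.4 and 65.3 against 244, 191 and 140.5 and whose second probe was lower. Hepatocyte markers summed to 10693, 10630.5 and 9758 against 9566, 9880.4 and 9661, with 1 of 14 genes higher and 3 lower. The part of these cells was not tested.

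**Figure D5:**
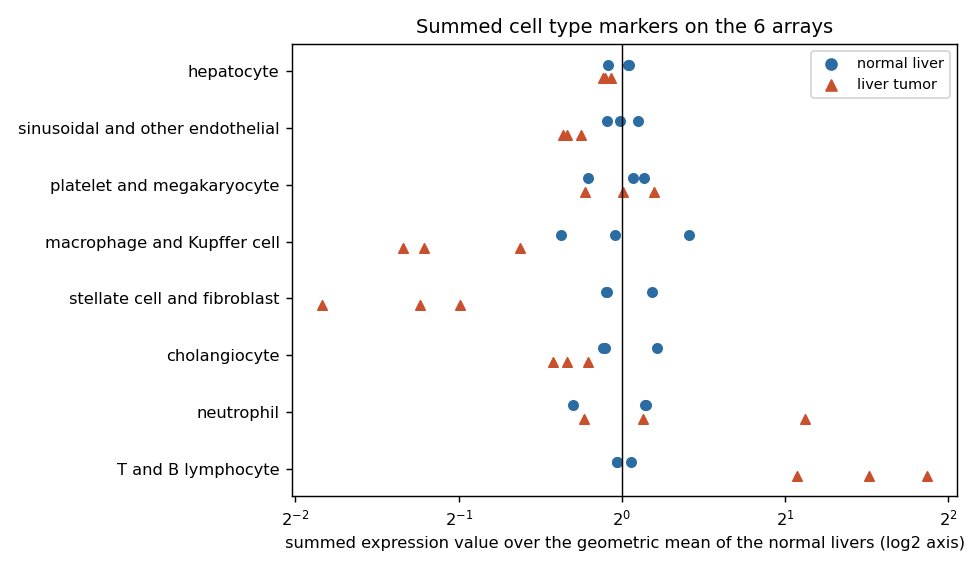
Summed expression value of each cell type's markers, over the geometric mean of the 3 normal livers (horizontal log2 axis), with normal livers as blue circles and tumors as red triangles. Hepatocyte and platelet sums lie near 1, the endothelial, macrophage, stellate and cholangiocyte sums are lower in every tumor than in every normal liver, and the lymphocyte sum follows 1 Cd4 probe.

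For expression in 2 groups the study's statistics section names the paired form of Student's t-test, and the note to its gene list names Student's t-test without a form. Both forms were run here, pairing by the replicate number. The study's own criteria, a group mean above 1, a 2-fold ratio of means and significance at the 0.05 level in the methods' t-test, were met by F13b, Fgl2 and Serping1 in both the unpaired and the paired form. In the unpaired form 22 of the 35 genes had a p under that limit and 14 after Benjamini-Hochberg adjustment over all probes. In the paired form 15 did and none after adjustment.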

How the data were processed

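The authors deposited, for 6 single-color SurePrint G3 Mouse GE arrays, Feature Extraction output (version 10.7.3.1 per the file headers, 12.0.3.1 per the submitters' processing notes) with a processed signal intensity after background subtraction and detrending, and a table of ratios of that signal to the array's 75th percentile. Starting from the deposited intensity, each signal was divided by the 75th percentile over all spots of its array and taken to log2 here. Control spots and outlier spots were left out, spots of a probe were averaged, and the test took in 24902 of 55681 probes, those flagged as clearly brighter than background in every sample of either group. Groups followed the sample titles. The comparison used limma 3.58.1 under R 4.3.3 (linear fit with moderated variances, two-sided, no block). Adjustment over all tested probes followed Benjamini and Hochberg, at 0.05. The brightest tested probe stood for a gene. Names came from RefSeq (GRCm38.p6) through the accession for 27235 probes, the symbol for 3581 and a synonym for 565, and 24300 kept the name of the array design. Probe positions are those of the array design (NCBI37/mm9). Python 3.11.15 with pandas 2.3.3, numpy 2.4.6 and matplotlib 3.10.9 was used for tables and figures.

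The members and gene lists were chosen with earlier results of these data known. Values on every array were given by rule for called genes with a log2 fold change of at least 1 in size, for Fga, Fgb, Fgg, F2, Plg, Serpinc1 and Fgl2, and for others where the text turns on them; of other pathway genes, the 6 largest called rises and the 6 largest called falls were named, except that some results are not reported here. A further 18 processing alternatives were run: background correction, scaling, filters on dim probes, the deposited table of ratios, eBayes with a trend, averaging the probes of a gene, the replicate number as a block, the methods' t-test, and leaving out each array. The scripts were tested on simulated data. The numbers shared by the labels were not taken to pair the samples, since the labels do not say that they do. Deviations from the group mean correlated at 0.0687, 0.132 and 0.0506 for same-numbered samples, and from -0.139 to 0.055 for differently numbered ones. With 3 samples a group, these correlations cannot decide whether a tumor and a normal liver shared an animal.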

Additional observations from a re-analysis of the deposited data

How the results depend on the processing

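Of the 15 called genes, Klkb1, F13b, Fgl2, Serpina5 and Serping1 were called under every alternative that tested them except the paired t-test. After adjustment of that test, the form that the study's statistics section names, no probe of the whole array was called. The number of the 37 genes called higher, 5, became 9 with quantile normalization, 3 without a filter on dim probes, 2 with a stricter filter (which leaves out Fgl2, Plat and Plaur) and 3 with the replicate number as a block. The number called lower, 10, became 4 with spike-in scaling and 5 without a filter. Their median log2 fold change, -0.18, became -0.078 with normexp correction, 0.0093 with quantile normalization and 0.032 with spike-in scaling. Over all tested genes the median became -0.091, -0.043 and 0.079 in the same order. Of the other pathway genes, the 10 called higher became 6 in the unpaired t-test, and the 18 called lower became 10 with spike-in scaling and 10 without a filter. Of all probes, 8239 were called, against 5381 with spike-in scaling, 4674 without a filter and 5261 in the unpaired t-test. In the paired t-test (replicate block) the counts were 0 higher and 0 lower among the 37 genes, 0 and 0 among the other pathway genes and 0 over all probes, although 15 genes of the 37, 21 other pathway genes and 7419 probes had an unadjusted p under 0.05.

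Leaving out 1 array gave from 3 to 5 of the 37 genes higher and from 7 to 9 lower, and a median log2 fold change from -0.18 to -0.12. It gave from 10 to 14 other pathway genes lower and from 4954 to 7171 probes called, both lowest without normal liver 2. Among results for single genes, 92 lost and 15 gained a call under an alternative, 732 stayed on their side of the threshold and none of the called values turned its sign, whereas uncalled values of F2, F7, F8, Fgb, Pzp and Serpina10 did. Calls were gained by F5, F9, F10, F11, Fga, Fgg, Fgl1, Kng1 and Serpind1. The cause of these differences was not tested, beyond the fewer genes left by the stricter filter. Only 3 arrays a group and signals near background for Serpina5, Plat, Plaur, Fgl2, Serpine2 and Adamts13 limit these values.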
